A study of Arabidopsis thaliana with 156 samples.

Results

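The transcriptome of fully expanded rosette leaves was compared between leaf positions 3, 5 and 7 of FRI;FLC plants of Arabidopsis thaliana. These are Col-0 plants into which the FRI allele of Sf-2 was introgressed, so that both FRI and FLC are functional. The leaves were chosen by their sample titles, which name the genotype, the stage, the position and the experiment. They make up 18 of the 156 samples of the series, as 3 replicates of each of 3 positions in each of 2 experiments, and therefore 6 arrays for each position. The whole series follows shoot apices, leaf primordia, fully expanded leaves and leaves past full expansion of FRI;FLC and FRI;flc-3 plants. Plants were grown in soil at 23 °C under 16 h of light. A replicate held 9 leaves, and RNA from 3 times of the same day was mixed in equal amounts before labelling. In both experiments leaf 3 was collected on day 23, leaf 5 on day 26 and leaf 7 on day 29, the days on which each position stopped expanding. Leaf position and plant age therefore cannot be told apart in these leaves. Experiment 1 used the plants that also gave the primordia, and experiment 2 was grown together with the plants that gave the apices and the leaves past full expansion.

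An Arabidopsis rosette makes juvenile leaves first and adult leaves later, and the forms differ in shape, in the surfaces that bear trichomes and in cell size, a change called heteroblasty. FRI raises the expression of FLC, a MADS-box repressor of flowering, and plants with both functional genes flower late unless they pass through a cold period. Leaves 3 to 7 are formed while the shoot is vegetative, and a leaf that has stopped expanding has largely completed cell division and wall growth, so its transcriptome reflects mature photosynthetic tissue.

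Levels are log2 hybridisation signals of 19324 probe sets, as the authors normalised them, and 1 log2 unit is a 2-fold difference. Differences were estimated within each experiment and averaged over the experiments, with limma, and a probe set was called at a Benjamini-Hochberg adjusted p under 0.05. Of the probe sets, 10918 matched 1 gene each, which gave 10786 genes, and 7999 carried no gene name here. Nothing in the sample descriptions ties a replicate to particular plants beyond its separate pool of leaves. The p-values therefore measure the spread between pools within groups. That spread was estimated over all 90 arrays of expanded leaves and leaves past full expansion, which include other positions and FRI;flc-3.

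Arrays of the same group correlated at 0.982 to 0.994, and no pair of the 18 arrays held identical values. The first principal component, with 25.4% of the variance, separated the experiments. In leaf 3 of experiment 2, arrays 1 and 2 stood apart from array 3 on the second component, at 45.8 and 43.3 against -11.2. On these arrays the signal also rose more steeply with gene length, at 0.84 and 0.80 log2 units per 10-fold of length, against -0.07 on array 3 and -0.12 to 0.31 on the leaf 7 arrays of that experiment. Array 2 of leaf 5 also stood apart. In experiment 1 its slope was 1.12, the steepest of the 18 arrays, against 0.27 and 0.67 on arrays 1 and 3. Its second component was 33.2, against -22.6 and -13.4. In experiment 2 its slope was 0.49 and its second component 23.8, against -0.06 and -14.1 on array 1 and 0.03 and -15.2 on array 3. Both of these leaf 5 arrays stayed in the reduced set described below. Spearman's correlation of the leaf 7 minus leaf 3 difference with gene length, over 10891 probe sets and given as a description, was 0.016 in experiment 1 and -0.343 in experiment 2. The counts of called probe sets that rest on arrays 1 and 2 of leaf 3 in experiment 2 are also given without them. That alternative was chosen after seeing the data and is called the reduced set here. It leaves only array 3 as leaf 3 of experiment 2, and the spread comes from the other groups. Its lower counts can come from fewer arrays or from the removal of these arrays, which cannot be told apart. Genes of the nuclear photosynthesis list stood at 9.05 to 13.5 in leaf 3, whereas the meristem gene CLV3 stood at 1.48. Because each array measures a whole leaf, fewer cells of a type and less RNA per cell cannot be told apart.

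Between leaf 3 and leaf 7, 891 of the 19324 probe sets were called, which is 4.61%. Of these, 508 were higher in leaf 7 (2.63%) and 383 were lower (1.98%). With arrays centred on their medians, 537 were higher and 304 lower, or 63.9% higher in place of 57%. Most of the differences were small: the median of the called probe sets was 1.75-fold, and 182 of the higher and 99 of the lower ones passed 2-fold. The range ran from +3.02 to -3.01 log2 units. The called probe sets matched 1 gene in 456 cases and several genes in 13, and 422 had no gene name here. In 268 of the 891, both leaf means lay under 5 log2 units, where signals are near the low end of the arrays. The reduced set called 163 probe sets, 81 higher and 82 lower. With each of the 18 arrays left out in turn, between 493 and 1092 were called. The count fell by over 1.5 times without array 1 of leaf 3 in experiment 2 (493), array 1 of leaf 7 in experiment 1 (528), array 2 of leaf 3 in experiment 2 (546), or array 1 or 3 of leaf 7 in experiment 2 (556 and 560). The 6 arrays of leaf 3 and the 6 of leaf 7 did not overlap at 192 of the 891 called probe sets, and at 285 of all probe sets, which is 1.47%.

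The genes described below are the 10 with the largest rise and the 10 with the largest fall among called genes with a level of at least 5 in leaf 3 or leaf 7 and the same sign in both experiments, and the corresponding 10 and 10 among genes that carry a symbol. These sets overlap and give 36 genes, 18 higher and 18 lower in leaf 7. The shared sign of the experiments is a condition of this choice and no separate evidence. The choice by size on these arrays also favours a kept direction in the refits that follow. Every one of the 36 kept its direction in the reduced set, and 22 of them also stayed past the threshold. The 14 that did not were AT2G16630, AT5G52390, ATSPS4F, EXPA16, GLDH, LCR69, RAP, SBT3.5, STOMAGEN, STZ, UGT73B1, UGT76C2, UGT84A3 and XTH32. When each of the 18 arrays was left out in turn, 28 of the 36 stayed past it in every fit. The others, with the number of the 18 fits in which each missed it, were XTH32 (10), RAP (9), AT5G52390 (8), ATSPS4F (8), SBT3.5 (7), GLDH (5), EXPA16 (4) and UGT84A3 (1).

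Some flowering regulators differed between leaf 3 and leaf 7, in both directions. Of 36 listed flowering time genes 8 were measured. Of the 8, 2 rose and 2 fell, while 4 did not pass the test, and the list's median was 0.15. Over all 10786 genes, 267 rose and 183 fell, which together is 4.17%, with a median of 0.00. Of these, AGL24 and SMZ also passed in the reduced set, while AGL19 and SNZ did not (limma adjusted p = 0.0813 and 0.474), and there 0.76% of all genes passed. AGL24, a MADS-box gene that promotes flowering, stood at 4.23, 5.08 and 5.86 as lowest, median and highest array in leaf 3, and at 6.12, 7.12 and 7.70 in leaf 7. The groups did not overlap, and the difference was +1.91 ± 0.23 (SE, n = 6 arrays a side, limma adjusted p = 2.67e-08). It rose by 1.58 in experiment 1 and by 2.25 in experiment 2. SMZ, an AP2-like repressor of flowering, moved the other way, from 4.53, 4.81 and 5.38 in leaf 3 to 3.35, 3.68 and 4.03 in leaf 7. The SMZ arrays of the leaves also did not overlap, with a difference of -1.19 ± 0.17 (SE, limma adjusted p = 2.18e-06). Its relative SNZ, named here after its values were seen as the last called member, fell from a mean of 8.55 to 7.82 (limma adjusted p = 0.00858). AGL19, a further MADS-box promoter of flowering, rose by 0.85 ± 0.20 (SE, limma adjusted p = 0.00379), but its arrays lay between 1.73 and 3.32, near the low end. The other 4 members were AGL42, AGL71, FD and LD, with differences of +0.16, +0.14, +0.34 and -0.33. Among all 23 measured MADS-box genes, AGL24 and AGL19 were the 2 that rose, none fell, and the median was 0.02.

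**Figure D1:**
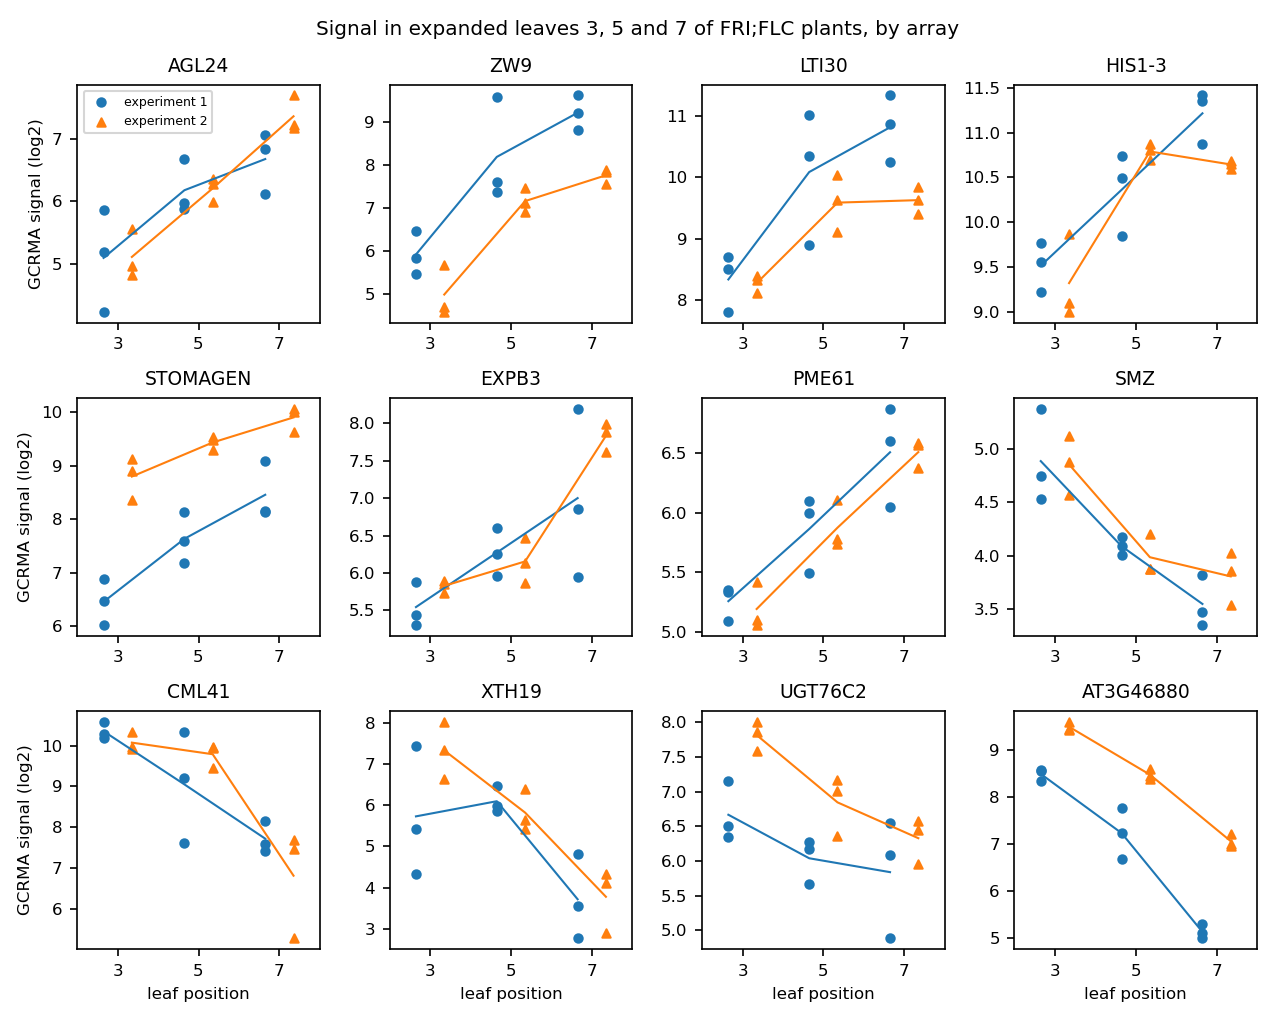
Signal of 12 genes on each array of FRI;FLC leaves 3, 5 and 7 (y axis, log2 signal; circles, experiment 1; triangles, experiment 2; lines, means of the 3 arrays of a group). AGL24, ZW9, LTI30, HIS1-3, STOMAGEN, EXPB3 and PME61 are higher in leaf 7, and SMZ, CML41, XTH19, UGT76C2 and AT3G46880 are lower.

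The plot of signal by array shows AGL24 and SMZ beside 10 genes described further on. Genes of the cold and dehydration list were partly higher in leaf 7. Of 30 listed genes 6 were measured. Of these 3 rose and none fell, against 4.17% called among all genes, and the list's median was 0.81. LTI30, a dehydrin induced by cold and drought, was at 7.81, 8.36 and 8.70 in leaf 3 and at 9.40, 10.05 and 11.34 in leaf 7. All leaf 7 arrays lay above all leaf 3 arrays, and the difference was +1.91 ± 0.29 (SE, limma adjusted p = 3.86e-06). HIS1-3, a linker histone variant induced by drought, was at 9.00, 9.39 and 9.86 in leaf 3 and at 10.59, 10.78 and 11.42 in leaf 7, again without overlap, with a difference of +1.52 ± 0.22 (SE, limma adjusted p = 1.56e-06). It was the only one of 4 measured histone genes to pass the test, and that list's median was -0.16. STZ, a zinc-finger repressor of the salt and cold response, rose by 1.53 ± 0.38 (SE, limma adjusted p = 0.00958). Its arrays overlapped, from 4.35 to 6.62 in leaf 3 and from 5.04 to 8.46 in leaf 7. Of these 3, LTI30 and HIS1-3 also passed in the reduced set. The abundant cold-regulated genes of the list did not pass: COR15A, COR15B and COR47 stood at 12.4 to 12.7 in leaf 3 and differed by +0.11, +0.09 and +0.09.

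Genes of cell wall growth moved in both directions. Of 39 listed expansins and xyloglucan endotransglucosylase/hydrolases, enzymes and proteins that loosen or rearrange the wall, 16 were measured. Of the 16, 3 rose, 4 fell and 9 did not pass. Their median was 0.10, and 43.8% were called, against 4.17% of all genes. EXPB3 and XTH19 also passed in the reduced set and the other 5 did not, with limma adjusted p from 0.121 for EXPA16 to 0.378 for EXPA4. XTH19 was the most changed: its leaf 3 arrays ran from 4.33 over a median of 6.99 to 8.03, and its leaf 7 arrays from 2.77 over 3.83 to 4.82. The ranges overlapped through the lowest leaf 3 array, and XTH19 differed by -2.79 ± 0.63 (SE, limma adjusted p = 0.00307). EXPB3, a beta-expansin, was at 5.30, 5.79 and 5.90 in leaf 3 and at 5.94, 7.75 and 8.20 in leaf 7. Its groups came close to touching but did not overlap, and it rose by 1.73 ± 0.32 (SE, limma adjusted p = 0.000252). EXPA16, an alpha-expansin, fell by 1.31 ± 0.36 (SE, limma adjusted p = 0.0182). The difference of EXPA16 was -0.59 in experiment 1 and -2.03 in experiment 2. The remaining called members of this list, EXPA4, EXPA9, EXLB1 and EXGT-A3, are named after their values were seen, to complete the count. EXPA4 rose by 0.82 and EXLB1 by 1.28, while EXPA9 fell by 0.91 and EXGT-A3 fell by 0.32 from a mean of 11.94 in leaf 3.

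Further wall enzymes appeared among the 36 genes. PME61, a pectin methylesterase, was tightly grouped, at 5.06, 5.22 and 5.42 in leaf 3 and at 6.05, 6.58 and 6.88 in leaf 7. No array of leaf 3 reached the leaf 7 range, and PME61 rose by 1.29 ± 0.17 (SE, limma adjusted p = 5.5e-07), by 1.25 in experiment 1 and 1.32 in experiment 2. XTH32 rose by 1.34 ± 0.41 (SE, limma adjusted p = 0.0417), with +0.43 in experiment 1 and +2.25 in experiment 2.

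STOMAGEN, which encodes a secreted peptide made in the mesophyll that promotes stomatal formation, rose in leaf 7. Its arrays were at 6.02, 7.62 and 9.13 in leaf 3 and at 8.13, 9.35 and 10.07 in leaf 7, so the pooled groups overlapped, while within each experiment all leaf 7 arrays lay above all leaf 3 arrays. The difference was +1.55 ± 0.37 (SE, limma adjusted p = 0.00639). It passed the test in experiment 1 with +2.00, and it was at +1.10 in experiment 2. Of 24 listed stomatal genes 4 were measured and 1 was called, against 4.17% of all genes. The other 3 measured genes of the stomatal list are transcription factors of the stomatal lineage and did not pass. SPCH and MUTE stood at 1.52 and 1.33 in leaf 3, near the floor of the arrays, and FMA differed by +0.43. Of 20 listed trichome genes 3 were measured and 1 was called. GIS, a zinc-finger gene of trichome initiation, rose by 1.06 ± 0.25 (SE, limma adjusted p = 0.00461), from a median of 2.49 to 3.17, near the low end of the arrays. It did not pass in the reduced set (limma adjusted p = 0.0623). SIM, a cell-cycle inhibitor of trichome cells, differed by +0.37, and TRY moved in opposite directions in the experiments.

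CML41 and UGT76C2 were among the genes lower in leaf 7. CML41, which encodes a calmodulin-like protein, was at 9.93, 10.24 and 10.59 in leaf 3 and at 5.27, 7.52 and 8.16 in leaf 7. The leaf 3 arrays lay close together and the leaf 7 arrays were spread, without overlap, and CML41 differed by -2.95 ± 0.44 (SE, limma adjusted p = 3.58e-06). UGT76C2, a glucosyltransferase that inactivates cytokinins, was at 6.34, 7.36 and 8.00 in leaf 3 and at 4.89, 6.27 and 6.58 in leaf 7. Its ranges overlapped between 6.34 and 6.58, and it fell by 1.16 ± 0.23 (SE, limma adjusted p = 0.000691). UGT84A3 and UGT73B1, a pair of other glucosyltransferases, fell by 1.06 and 0.98. Of 39 measured UDP-glycosyltransferases none rose and 3 fell, which is 7.69% against 4.17% of all genes, with a median of -0.03. That list was gathered by the text of the annotation, which does not name the family for UGT84A3, so UGT84A3 is not counted in it. The 3 that fell are UGT76C2, UGT73B1 and UGT85A2, the last named after its values were seen, at -0.56. In the reduced set UGT76C2, UGT73B1 and UGT85A2 differed by -1.04, -0.82 and -0.47. None of these 3 passed there, nor did another member of the list. At the share of all genes called in that set, given with the flowering genes, a list of this size can hold no called gene.

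Genes of defence, proteolysis, chloroplast maturation and primary metabolism were also among the 36. LCR69, which encodes a defensin-like peptide, was higher in every array of leaf 7, at 10.16 to 11.09, than in any of leaf 3, at 8.21 to 9.92, and rose by 1.43 ± 0.33 (SE, limma adjusted p = 0.00355). SBT3.5, a subtilase, fell by 1.15 (limma adjusted p = 0.0317). GLDH, the enzyme of the last step of ascorbate synthesis, fell by 0.98 (limma adjusted p = 0.024). RAP, a chloroplast protein needed for ribosomal RNA maturation, fell by 0.98, from 7.02, 7.73 and 7.97 in leaf 3 to 6.26, 6.66 and 7.00 in leaf 7 (limma adjusted p = 0.042). Its groups were separated by a narrow gap. ATSPS4F, a sucrose phosphate synthase, fell by 0.95 (limma adjusted p = 0.0378), with overlapping arrays from 8.93 to 10.23 in leaf 3 and from 7.97 to 9.34 in leaf 7.

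ZW9 had the largest rise among genes with a symbol, from 4.60, 5.58 and 6.46 in leaf 3 to 7.56, 8.34 and 9.61 in leaf 7. It rose by 3.02 ± 0.40 (SE, limma adjusted p = 2.05e-07), by 3.28 in experiment 1 and 2.76 in experiment 2, without overlap. The other 8 genes of the largest rises besides AGL24 carry only a locus tag, and no role is given to them here. Their differences ran from +1.97 for AT3G21950 to +2.48 for AT4G10390. AT3G21950 was the most even of them, at 2.70, 3.56 and 3.97 in leaf 3 and at 5.07, 5.49 and 5.83 in leaf 7. AT5G05960 stood highest of the 8, at 7.92, 8.23 and 8.98 in leaf 3 and at 9.74, 10.38 and 11.27 in leaf 7. AT4G10390 was uneven between the experiments. Its leaf 7 arrays stood at 9.23, 6.60 and 8.39 in experiment 1 and at 4.68, 4.28 and 4.67 in experiment 2, against 3.54 to 4.29 over all leaf 3 arrays.

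Of the 10 largest falls, 8 likewise carry only a locus tag. AT3G46880 was at 8.34, 9.01 and 9.61 in leaf 3 and at 4.99, 6.13 and 7.22 in leaf 7, without overlap, with a difference of -2.91 ± 0.36 (SE, limma adjusted p = 6.84e-08). AT5G38780 had the smallest adjusted p of the 36 genes, at 4.18e-09 by limma, with 4.14, 5.09 and 6.65 in leaf 3 and 2.58, 2.86 and 3.88 in leaf 7. Its difference was -2.16 ± 0.24 (SE), and its groups did not overlap. The other 6 were AT5G50915, AT3G14395, AT1G21550, AT4G15680, AT1G09500 and AT2G16630, with differences from -2.69 for the first of them to -2.002 for the last. Over all 36 genes, the leaf 3 and leaf 7 arrays did not overlap at 20, of which 12 were higher and 8 lower in leaf 7, against 1.47% of all probe sets. The choice by size on the same arrays favours such genes, so this count is a description.

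In many lists of leaf function no measured gene passed the test, where 4.17% of all genes did, the share to set beside each count here. Measured were 11 of 58 listed nuclear photosynthesis genes, 8 of 40 glucosinolate and 5 of 36 jasmonate genes. For cell division and DNA replication it was 5 of 31, and for leaf polarity and shape 6 of 32. A list this short can hold no called gene at that share, so its count does not describe the whole group. None of the 11 measured nuclear photosynthesis genes passed, with a median of 0.03, and none of the 69 plastid-encoded transcripts, with a median of -0.11 and 17 of the 69 above 0. None of 8 glucosinolate genes passed (median 0.02), none of 5 jasmonate genes (median -0.22), none of 5 genes of cell division and DNA replication (median -0.01) and none of 6 genes of leaf polarity and shape (median 0.10). By limma's unadjusted p under 0.05, 1 gene passed in each of these lists except the plastid-encoded one, where 10 of 69 did, against 14.7% of all genes. Of 25 listed flavonoid and anthocyanin genes 6 were measured. All 6 were above 0, with a median of 0.64, but none passed, and 2 did by limma's unadjusted p. DFR, an enzyme of anthocyanin synthesis, had the largest difference of these, +1.76 ± 0.76 (SE, limma adjusted p = 0.204), and its arrays spread from 4.57 to 9.35 in leaf 3 and from 3.41 to 12.08 in leaf 7. Of 28 listed senescence genes 6 were measured. Among them WRKY6, a transcription factor of senescing leaves, fell by 0.74 (limma adjusted p = 0.0336), and the other 5 did not pass. WRKY6 was also the 1 called of 7 measured WRKY genes. Of 18 cytochrome P450 genes, CYP71B22 rose by 0.90 and CYP71B37, named after its values were seen, by 0.38. Both stood under 5 log2 units. IAA29, an Aux/IAA repressor of auxin response, rose by 0.99 ± 0.30 (SE, limma adjusted p = 0.043) as 1 of 4 measured auxin and gibberellin genes. IAA29 missed the threshold in 9 of the 18 fits that left out 1 array. IAA29, WRKY6, CYP71B22 and CYP71B37 did not pass in the reduced set, with limma adjusted p of 0.476, 0.277, 0.344 and 0.0754.

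Apart from the marker lists, 5 lists had 1 measured member each, which did not pass: PORB of chlorophyll synthesis differed by +0.04, GRX480 of salicylate response by +1.31, GI of the circadian clock by -0.43, BHLH101 of iron uptake by -0.79 and the heat shock gene AT1G53540 by -0.71. The root marker PYK10, an ER-body beta-glucosidase abundant in roots, was called with a difference of -2.09 ± 0.43 (SE, limma adjusted p = 0.00103). In experiment 1 its leaf 3 arrays stood at 4.80, 4.06 and 3.98 and its leaf 7 arrays at 5.20, 5.81 and 2.14. In experiment 2 they stood at 7.95, 6.64 and 7.57 in leaf 3 and at 3.12, 2.84 and 3.35 in leaf 7. The fall of PYK10 thus lay in experiment 2, at -4.28 against +0.10 in experiment 1. PYK10 still passed in the reduced set, at -2.18 (limma adjusted p = 0.0203). PYK10 was the only root gene measured of 5 listed, and its part in the other differences was not tested.

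**Figure D2:**
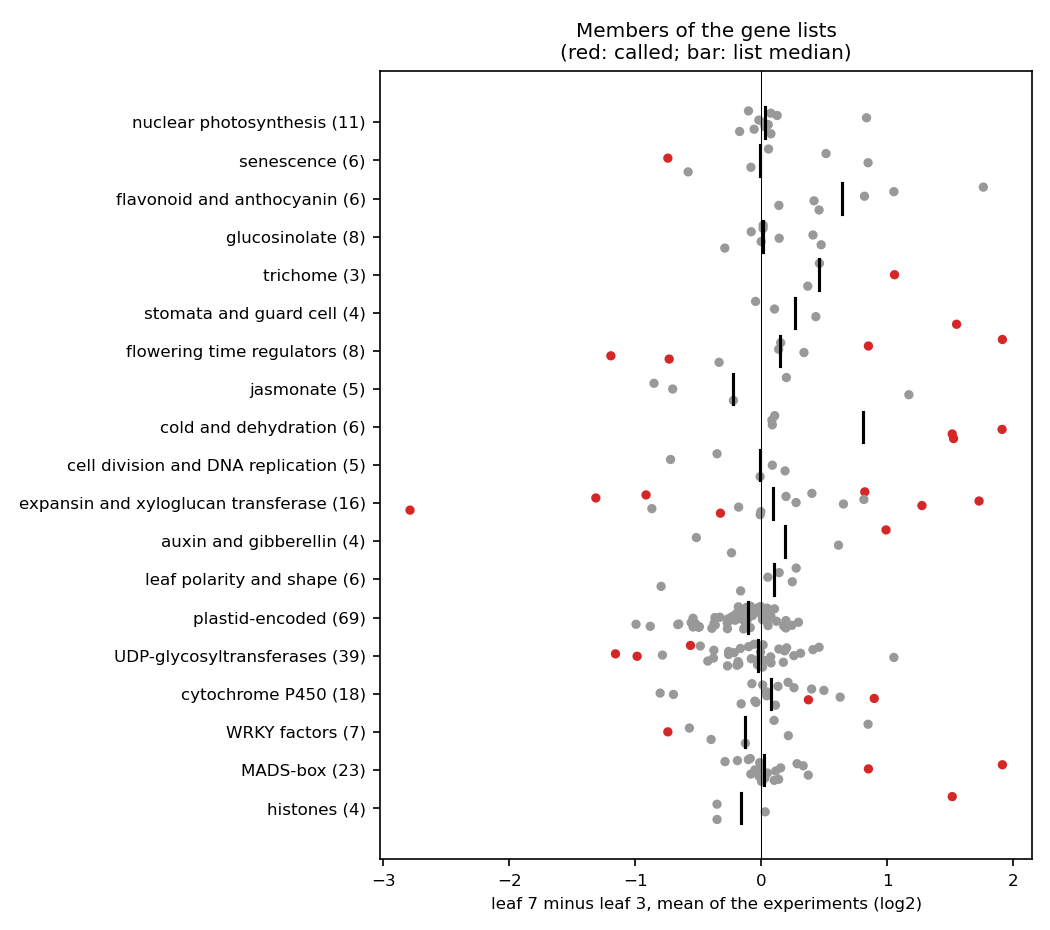
Leaf 7 minus leaf 3 of FRI;FLC (x axis, log2, mean of the experiments) for each measured member of the gene lists with at least 3 measured members (y axis). Red points passed an adjusted p under 0.05 and bars mark list medians; called members stand on both sides of 0 for flowering and wall genes, and none is red among photosynthesis, glucosinolate or plastid-encoded genes.

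Leaf 5 stood between leaf 3 and leaf 7 in most of these differences. From leaf 3 to leaf 5, 94 probe sets were called (0.486%), 47 in each direction, and from leaf 5 to leaf 7, 114 were called (0.590%), 42 higher and 72 lower. With arrays centred on their medians, the second step had 55 higher and 62 lower, or 47.0% higher in place of 36.8%. The reduced set called 7 probe sets in the first step. Of the 891 probe sets called between leaves 3 and 7, leaf 5 lay between the means of the other leaves at 807, which is 90.6%, against 43.1% of all probe sets. A position between is partly fixed by choosing probe sets for a large difference on the same arrays. The median share of the change reached at leaf 5 was 51.0%, with quartiles of 30.2% and 69.8%. The same choice draws this share toward the middle, so it is a description. Most of the 891 passed neither single step, at 749 probe sets, while 75 passed the first, 68 the second and 1 both.

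Of the 36 genes, 11 passed the first step, 7 the second, none both, and 18 neither. The choice by size on the same leaf 3 and leaf 7 arrays favours such passes, so these counts are a description. Only AT5G38780 of the 36 passed the first step in the reduced set, so the first-step calls given here for LTI30, HIS1-3, ZW9, SMZ and AGL24 were not made there. LTI30 made most of its rise in the first step, with 8.90, 9.83 and 11.02 in leaf 5, or +1.53 (limma adjusted p = 0.00171) and then +0.38. HIS1-3 was similar, with +1.16 to leaf 5 (limma adjusted p = 0.00164) and +0.36 after it. ZW9 rose by 2.21 to leaf 5 (limma adjusted p = 0.000824), and SMZ fell by 0.83 (limma adjusted p = 0.00735). CML41 changed mainly later, by -0.79 to leaf 5, where its median was 9.70, and by -2.16 to leaf 7 (limma adjusted p = 0.00609). AT3G46880 differed by -1.14 and then by -1.77 (limma adjusted p = 0.00609 for the second). AGL24 rose by 1.09 to leaf 5 (limma adjusted p = 0.00735) and then differed by +0.83 (limma adjusted p = 0.0747).

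A departure of leaf 5 from the midpoint of leaves 3 and 7 was called at 12 probe sets (0.0621%), 10 above and 2 below it. These calls were not stable: the count was 0 in the reduced set and without any 1 of 4 single arrays, and 1 after quantile normalisation (limma; 1276 passed by unadjusted p on all 18 arrays). None of the 36 genes was among them. AT5G57760, AT3G57940 and AT1G15010, which carry only a locus tag, are named as examples after their values were seen. The mean level of AT5G57760 was 4.40 in leaf 3, 6.44 in leaf 5 and 6.27 in leaf 7, so it had reached its later level by leaf 5. AT3G57940 was highest in leaf 5, at 4.42, against 3.75 in leaf 3 and 3.33 in leaf 7. AT1G15010 was lowest there, at 2.93, against 4.93 and 4.40.

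The experiments differed in many genes. In experiment 1 alone, 710 probe sets were called (3.67%), 455 higher and 255 lower in leaf 7, and in experiment 2 alone 295 (1.53%), 145 higher and 150 lower. With arrays centred on their medians, experiment 2 had 154 higher and 105 lower, or 59.5% higher in place of 49.2%. Without arrays 1 and 2 of its leaf 3, 18 probe sets were called in experiment 2. The experiments share no array. Probe sets called in both with the same sign numbered 52, which is 7.32% of the 710 and 17.6% of the 295, and 18 were called in opposite directions. Of the 710 called in experiment 1, 501 had the same sign in experiment 2, or 70.6% against 54.7% of all probe sets. Across all probe sets, which are not independent replicates, Pearson's correlation of the differences was 0.237. The reduced set called 4 probe sets in both with the same sign and 1 with opposite signs, and 60.6% of those called in experiment 1 had the same sign in experiment 2, against 51.3% of all. Of the 36 genes, 26 passed in experiment 1, 20 in experiment 2 and 14 in both. Their choice by a called mean of these experiments with equal sign favours such passes, so these counts are a description. The passes in experiment 2 also rest in part on arrays 1 and 2 of its leaf 3, which stood apart.

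**Figure D3:**
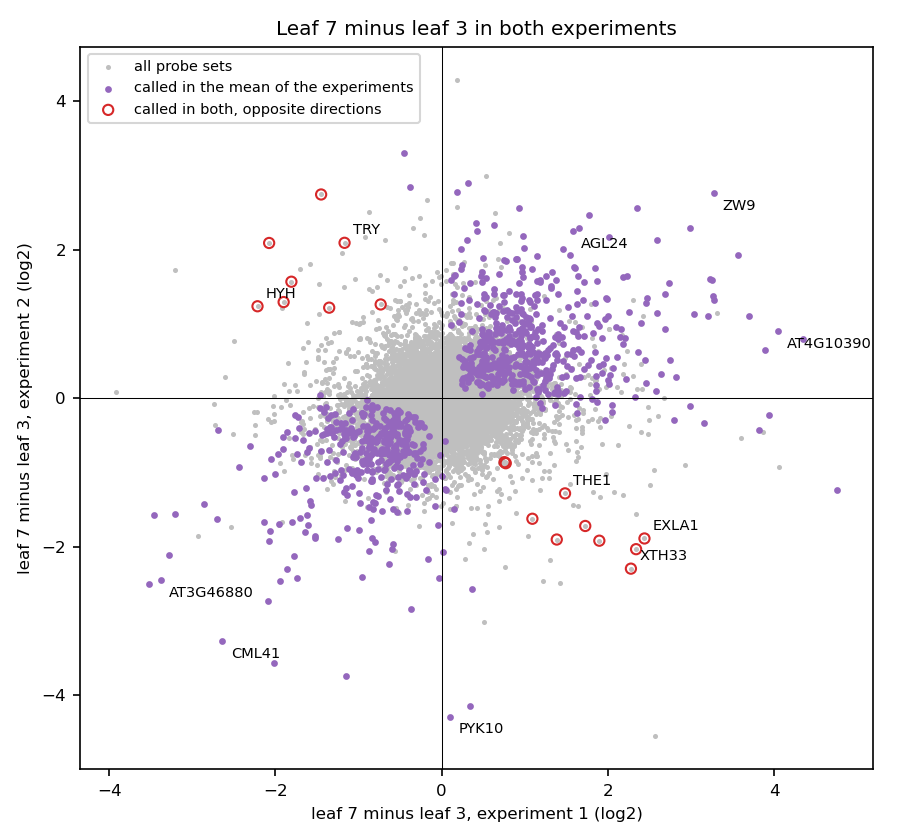
Leaf 7 minus leaf 3 of FRI;FLC in experiment 1 (x axis, log2) against experiment 2 (y axis, log2) for 19324 probe sets. Purple points were called in the mean of the experiments and lie mostly in the quadrants of equal sign; red rings mark 18 probe sets called in both experiments in opposite directions.

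The difference between the experiments itself was called at 205 probe sets (1.06%), 78 with a more positive value in experiment 2 and 127 with a more negative one, and at 54 in the reduced set. TRY, a small MYB protein that represses trichome formation, was one of the 18 called in opposite directions. In experiment 1 its leaf 3 arrays all stood at 9.29 or above and its leaf 7 arrays at 8.46, 9.54 and 7.60, a difference of -1.17 (limma adjusted p = 0.0407). In experiment 2 they stood at 7.35, 7.03 and 7.23 in leaf 3 and at 9.02, 9.41 and 9.47 in leaf 7, a difference of +2.09 (limma adjusted p = 6.81e-05). The leaf 3 arrays of TRY thus differed between the experiments with no overlap, whereas the leaf 7 ranges overlapped. Other genes of the 18 are named after their values were seen. Opposite calls favour a called difference between the experiments on the same arrays, also in the reduced set. For the genes of the 18 such a call is therefore a description. EXLA1, an expansin-like gene, and XTH33 rose by 2.44 and 2.28 in experiment 1 and fell by 1.89 and 2.29 in experiment 2. THE1, a receptor kinase that senses the state of the wall, rose by 1.49 and fell by 1.28. HYH, a bZIP factor of light signalling, fell by 2.21 and rose by 1.24. In the reduced set, leaf 3 of experiment 2 is array 3 alone. The difference between the experiments there was +3.23 for TRY, +3.45 for HYH, -4.57 for PYK10 and -4.045 for EXLA1. It was -4.39 for XTH33 and -2.81 for THE1. For AT4G10390 it was -3.27 and did not pass. TRY then differed by +2.07 in experiment 2 alone and did not pass.

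FRI;flc-3 plants carry the same FRI allele with a non-functional FLC, and their fully expanded leaves 3 and 7 were collected on days 21 and 26 in experiment 1 and on days 23 and 29 in experiment 2. Their 12 arrays, 6 for each position, share none with FRI;FLC. In FRI;flc-3, leaf 7 differed from leaf 3 at 3109 probe sets (16.1%), 1535 higher (7.94%) and 1574 lower (8.15%). With arrays centred on their medians these were 2475 and 1315, or 65.3% higher in place of 49.4%. Of the 891 probe sets called in FRI;FLC, 731 had the same sign in FRI;flc-3, which is 82.0% against 63.1% of all probe sets, and 269 were called in the same direction, which is 30.2% of the 891 and 8.65% of the 3109. A further 13 were called in opposite directions. In the reduced set, 134 of the 163 had the same sign, or 82.2% against 51.4% of all, 57 were called in the same direction and none in opposite directions.

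Of the 36 genes, 32 had the same sign in FRI;flc-3, and 16 were called there in the same direction. PME61 rose by 1.29 in each genotype, with a limma adjusted p of 3.5e-07 in FRI;flc-3. AGL24 rose by 1.48 ± 0.23 (SE, limma adjusted p = 7.87e-06) in FRI;flc-3, and EXPA16 and UGT76C2 fell there by 2.03 and 1.46. The test of the difference between the genotypes called 170 probe sets (0.880%). Of these, 97 had the higher and 73 the lower value in FRI;flc-3. Among the 36 genes it called 10. The FRI;FLC arrays on which the 36 were chosen by size enter this test, so the count of 10 is a description. Without array 2 of FRI;FLC leaf 7 in experiment 1 this test called 370 probe sets, and without array 1 of leaf 7 in experiment 2 it called 104. It called 68 in the reduced set, with ZW9, AT1G61890 and AT1G21550 the ones among the 36 genes. ZW9 did not pass in FRI;flc-3: its group means were 6.78 in leaf 3 and 5.34 in leaf 7 in experiment 1, and 4.94 and 6.03 in experiment 2. The ZW9 difference there was -0.17 ± 0.40 (SE), and the genotypes differed by -3.19 (limma adjusted p = 0.000702).

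LTI30 differed by +0.19 ± 0.29 (SE) in FRI;flc-3, and the genotypes differed by -1.73 (limma adjusted p = 0.0181). CML41 had means of 8.34 and 6.61 in experiment 1 and of 10.07 and 10.59 in experiment 2 of FRI;flc-3, with a genotype difference of 2.35 (limma adjusted p = 0.0453). SMZ, which is not one of the 36, was at 3.62 and 3.42 in experiment 1 and at 3.60 and 3.89 in experiment 2. These SMZ levels of both FRI;flc-3 leaves were near that of FRI;FLC leaf 7, and the genotype difference was 1.24 (limma adjusted p = 0.00292, and 0.0521 in the reduced set). The other 7 of the 10 genes were AT4G10390, AT5G22460, AT1G61890, STZ, AT3G46880, AT1G21550 and AT5G38780, each with the smaller difference in FRI;flc-3 or, for STZ, a difference of -0.62. A smaller difference in FRI;flc-3 is favoured by the choice of these genes on FRI;FLC arrays. Because FRI;flc-3 leaves of experiment 1 were collected on earlier days than those of FRI;FLC, genotype and plant age cannot be told apart in that experiment.

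Leaves past full expansion were collected on day 33 in experiment 2, leaf 3 and leaf 7 together, so plant age was equal and the time since the end of expansion was not. Leaf 7 differed from leaf 3 at 3167 probe sets (16.4%) with 3 arrays a side, 1618 higher (8.37%) and 1549 lower (8.02%). Array medians shifted by -0.11 between these leaves. Centred on them, 2053 were higher and 1239 lower, or 62.4% higher in place of 51.1%. Of the 891 probe sets, 694 had the same sign at this stage, or 77.9% against 61.5% of all, and 270 were called in the same direction, which is 30.3% of the 891 and 8.53% of the 3167. Another 19 were called in opposite directions. In the reduced set, 126 of the 163 had the same sign, or 77.3% against 50.9% of all, 60 were called in the same direction and 2 in opposite directions.

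Of the 36 genes, 32 had the same sign past full expansion and 14 were called in the same direction. AGL24 differed by +3.36 ± 0.32 (SE, n = 3 arrays a side, limma adjusted p = 8.35e-12), from a mean of 4.24 to 7.60. STOMAGEN differed by +3.49 ± 0.53 (SE, limma adjusted p = 1.98e-06), from 4.04 to 7.53, and both means lay under those of the same positions at full expansion. AT5G05960, AT3G21950 and PME61 rose by 2.89, 2.60 and 1.80. The test between the stages uses experiment 2 arrays on which the 36 genes were chosen by size, which favours calls among them. The change of the difference between the stages, tested within experiment 2, was called at 283 probe sets (1.46%). Of these, 153 went in the positive and 130 in the negative direction. The change was called at 5 of the 36 genes. It was called at 93 in the reduced set, with AT3G46880 the 1 gene of the 36. AT3G46880 turned, with means of 4.45 and 6.12 past full expansion, a rise of 1.68 (limma adjusted p = 0.0192), and a change of 4.12 between the stages (limma adjusted p = 0.000336). EXPA16 differed by +0.86 ± 0.50 (SE) at this stage and by a change of 2.89 (limma adjusted p = 0.0185). HIS1-3 was at -0.25 with a change of -1.57 (limma adjusted p = 0.0447), and AT5G22460 was at +0.24 with a change of -2.32 (limma adjusted p = 0.0494). AT5G38780 went further in the same direction, to -3.38 (limma adjusted p = 3.72e-11 within this stage).

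In primordia of 1 mm, 30 to a replicate, collected on day 9 for leaf 3 and on day 14 for leaf 7 from the plants of experiment 1, 425 probe sets were called (2.20%), 223 higher and 202 lower. Of the 891 probe sets, 534 had the same sign in primordia, which is 59.9% against 55.7% of all, and 39 were called in the same direction and 15 in opposite directions. In the reduced set, 101 of the 163 had the same sign, or 62% against 51.2% of all, 6 were called in the same direction and 3 in opposite directions. Among the 36 genes 2 were called in primordia. AGL24 rose by 2.52 ± 0.29 (SE, limma adjusted p = 1.07e-08), from 6.94 to 9.46, and ATSPS4F fell by 1.67 ± 0.34 (SE, limma adjusted p = 0.00113). Several of the genes that changed most in expanded leaves were near the floor in primordia: CML41 was at 2.12 and 2.22 and AT3G46880 at 2.02 and 1.98. STOMAGEN stood higher in primordia than in leaves 3, 5 and 7 at full expansion, at 12.11 and 12.04, and ZW9 was at 9.46 and 8.98. The difference between expanded leaves of experiment 1 and primordia was called at 631 probe sets (3.27%). Of these, 387 had the higher and 244 the lower value in expanded leaves. Among the 36 genes it was called at 18, a count favoured by their choice by size on the same expanded leaves.

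**Figure D4:**
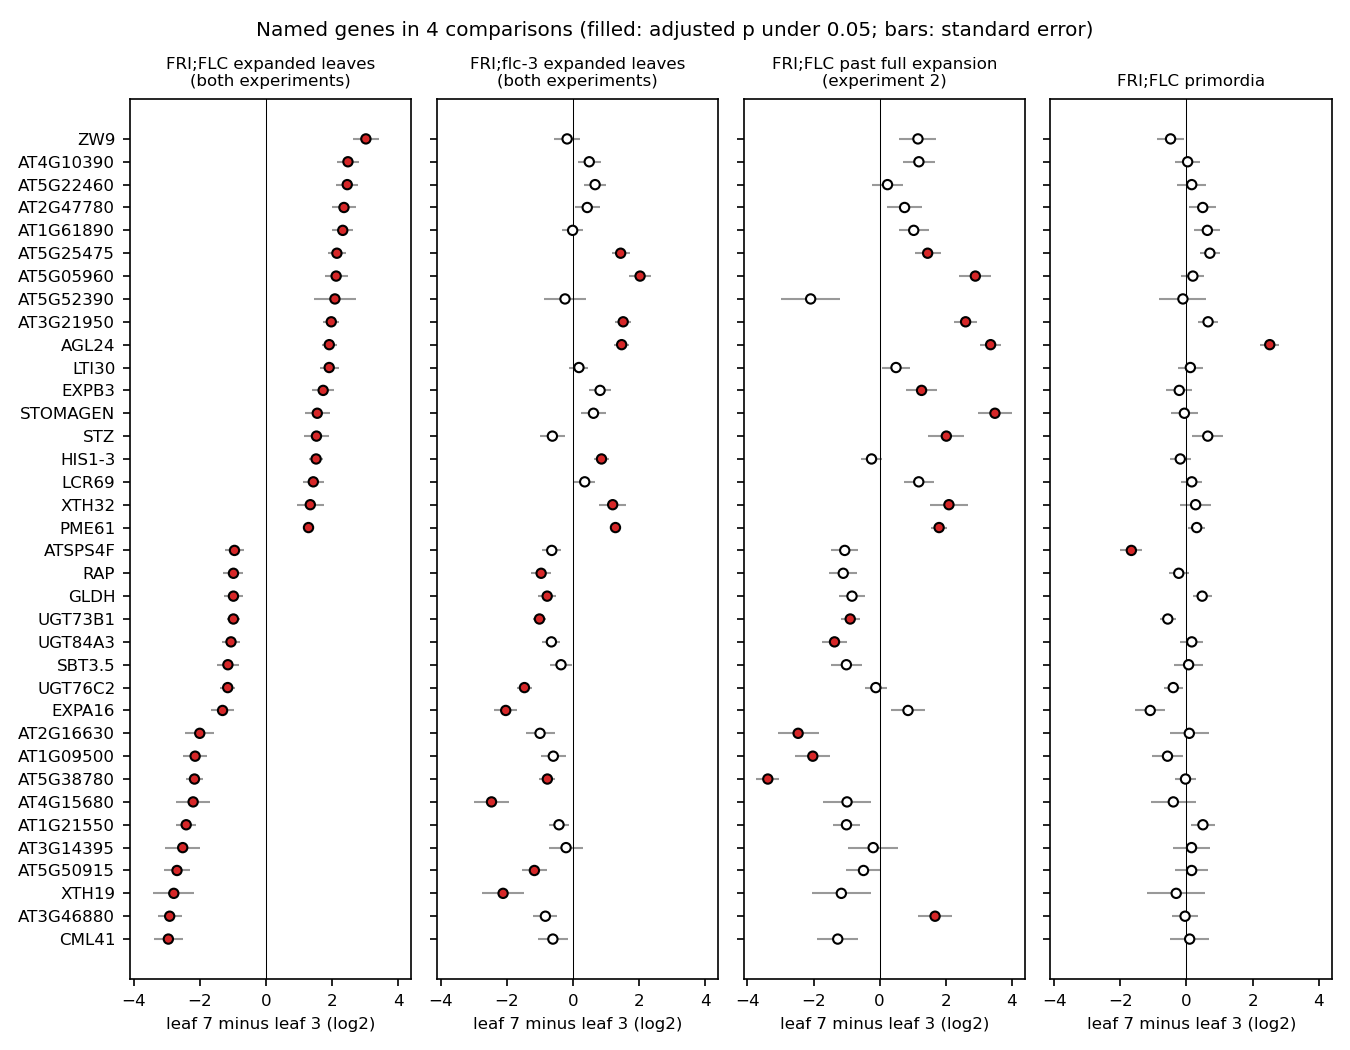
Leaf 7 minus leaf 3 (x axis, log2; bars, SE) of the 36 genes chosen by size of difference (y axis) in FRI;FLC expanded leaves, FRI;flc-3 expanded leaves, FRI;FLC leaves past full expansion and FRI;FLC primordia; filled points have an adjusted p under 0.05. AGL24 is filled in all 4, ZW9 is filled in FRI;FLC expanded leaves only, and most primordia values lie near 0.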

How the data were processed

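Expression was measured in polyA RNA by hybridisation of amplified, biotin-labelled cDNA to arrays. The deposited table holds log2 signals, normalised by the authors; the submitters' processing notes name GCRMA and MAS5, without versions or roles. The values lie on a log2 scale from 0.55 to 13.9 over the 18 arrays, with array medians of 6.61 to 6.88, and their 10th percentile was 2.04. No further normalisation was applied. Probe sets were named through the platform's annotation updated by locus tag against RefSeq of TAIR10.1: 10918 matched 1 gene, 407 several and 7999 none, among them 41 control probe sets. A gene with more than 1 probe set was represented by its brightest. The 19324 probe sets entered limma 3.58.1 (R 4.3.3) in 1 model of 30 groups and 90 arrays of leaves, with 60 residual degrees of freedom, or of 24 groups and 72 arrays for comparisons with primordia. Contrasts were averaged over experiments, and p-values were adjusted over all probe sets by the Benjamini-Hochberg method. Groups, experiments and days follow the sample titles and characteristics. The number of arrays limits the precision.

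Genes were named by size of difference as stated with the results, with the 3 most different members of each of 33 gene lists. Of these lists 6 were gathered by annotation, and the others hold 556 genes, 95 of them measured. The pattern for plastid loci was set to the table's own identifiers after it was seen. The leaves compared, the lists and the rules were chosen with earlier results of these data known. Alternatives changed the scaling, the filters, the variance prior, the weights, the samples fitted and the treatment of gene length, and left out each of the 18 arrays in turn.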

Additional observations from a re-analysis of the deposited data

Results flagged for a closer look

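Leaf 7 minus leaf 3 differed between the experiments (experiment 2 minus experiment 1, limma adjusted p under 0.05, log2) for PYK10 (-4.39), XTH33 (-4.57), EXLA1 (-4.33), AT4G10390 (-3.15), THE1 (-2.77), HYH (3.45) and TRY (3.26). TRY, EXLA1, XTH33, THE1 and HYH were called in opposite directions in the experiments, which favours a called difference between the experiments. All 7 genes rest in part on the leaf 3 arrays of experiment 2, of which arrays 1 and 2 stood apart. Without those arrays, leaf 3 of experiment 2 is array 3 alone. The 7 differences then ran from -4.57 for PYK10 to 3.45 for HYH, and that of AT4G10390, at -3.27, did not pass.

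Leaf 7 minus leaf 3 differed between the genotypes (FRI;flc-3 minus FRI;FLC, limma adjusted p under 0.05). The choice of genes by size in FRI;FLC favours such calls, since the same arrays enter the test. Values were negative for ZW9 (-3.19), WRKY53 (-2.43), AT1G61890 (-2.33), STZ (-2.14), AT4G10390 (-1.98), AT5G22460 (-1.78) and LTI30 (-1.73). They were positive for CML41 (2.35), BHLH101 (2.18), AT3G46880 (2.08), AT1G21550 (1.99), TRY (1.57), HYH (1.56), AT5G38780 (1.39) and SMZ (1.24). Without the same arrays ZW9, AT1G61890, AT1G21550 and TRY still passed, with limma adjusted p from 0.0213 for ZW9 to 0.0466 for TRY, and the others did not. WRKY53, a senescence-associated WRKY factor, differed by +0.85 in FRI;FLC and by -1.59 in FRI;flc-3.

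The same difference changed past full expansion (past minus at full expansion, experiment 2, limma adjusted p under 0.05) for AT3G46880 (4.12), EXPA16 (2.89), AT5G22460 (-2.32), AT5G38780 (-1.76) and HIS1-3 (-1.57). AT3G46880 was the one of these that still passed without those arrays (limma adjusted p = 0.0153).

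It also differed between expanded leaves of experiment 1 and primordia (expanded minus primordia, limma adjusted p under 0.05). The choice of genes by size on expanded leaves favours such calls here and in the comparison past full expansion. Values were positive for AT4G10390 (4.02), ZW9 (3.76), EXLA1 (2.94), AT1G61890 (2.64), IAA29 (2.38), LTI30 (2.36), AT5G22460 (2.20), AT2G47780 (2.10), STOMAGEN (2.06), EXLB1 (2.03), AT5G25475 (2.03), HIS1-3 (1.89), LCR69 (1.59) and THE1 (1.55). They were negative for AT3G14395 (-3.61), AT5G50915 (-3.43), AT3G46880 (-3.33), AT5G38780 (-2.67), AT1G21550 (-2.59), HYH (-2.53), AT1G09500 (-2.28), TRY (-2.15), GLDH (-1.999) and UGT84A3 (-1.88).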

How the results depend on the processing

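Limits: leaf position and day cannot be told apart, experiments share few called genes, and 268 of the 891 called probe sets lie at low signal in both leaves. In the order leaf 7 minus 3, leaf 5 minus 3, leaf 7 minus 5, leaf 5 off the midpoint, experiment 1, experiment 2, between experiments, FRI;flc-3, between genotypes, past full expansion and between stages, the reported counts were 891, 94, 114, 12, 710, 295, 205, 3109, 170, 3167 and 283. With array weights, estimated gene by gene, they were 2641, 392, 577, 96, 1287, 2578, 848, 7821, 2502, 6982 and 1411. Over the brighter probe sets, above the median of mean signal, they were 348, 30, 42, 0 (limma; 1276 by unadjusted p over all probe sets), 266, 144, 116, 1922, 84, 1816 and 92, with 225 in primordia and 202 for expanded leaves against primordia. Over probe sets with a gene length, in the same order without the midpoint, they were 425, 42, 62, 334, 154, 88, 1624, 86, 1556 and 131, and with the trend on length removed 474 for leaf 7 minus 3 and 55 for leaf 5 minus 3, then 416, 161, 93, 1470, 84, 1441 and 152 from experiment 1 on. These filters test fewer probe sets. Fitting only the groups compared gave 21 for leaf 5 minus 3, 40 for leaf 7 minus 5, 0 at the midpoint, 143 in experiment 1, 49 between experiments, 257 between genotypes and 529 between stages. Leaf 7 minus 3 was called at 161 with experiment ignored, 281 with at least 2-fold and 295 in experiment 2 alone. The midpoint count was 1 after quantile normalisation, 3 with centred arrays and 6 with a robust prior.

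Without arrays 1 and 2 of leaf 3 in experiment 2, leaf 7 minus 3 was called at 163, leaf 5 minus 3 at 7, the midpoint at 0, experiment 2 at 18, and the differences between experiments at 54, between genotypes at 68 and between stages at 93, with fewer samples. Leaving out each array in turn gave 493 to 1092 for leaf 7 minus 3, 38 to 112 for leaf 5 minus 3, 52 to 232 for leaf 7 minus 5, 0 to 25 at the midpoint, 272 to 789 in experiment 1, 121 to 352 in experiment 2, 101 to 384 between experiments, 104 to 370 between genotypes and 140 to 299 between stages. The lowest of these came without array 1 of leaf 3 in experiment 2 (leaf 7 minus 3, leaf 5 minus 3, experiment 2), array 1 of leaf 7 in experiment 1 (experiment 1, between experiments), array 1 of leaf 7 in experiment 2 (genotypes, stages) or array 2 of leaf 5 in experiment 1 (leaf 7 minus 5), the midpoint count of 0 without any of array 1 of leaf 3 in experiment 2, array 3 of leaf 5 in either experiment or array 3 of leaf 7 in experiment 2, and the highest for leaf 7 minus 5, experiment 1, between experiments, genotypes and stages without array 2 of leaf 7 in experiment 1. The cause was not tested.

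Replicate numbers did not pair the samples throughout. Same-numbered arrays of different positions correlated at -0.376 to 0.506 in their deviations, with 9 of 18 over 0.1 and 8 closest to their own number. Leaves 3 and 5 of experiment 1 were closest to their own number at each replicate (0.167, 0.324 and 0.254). So was replicate 2 of experiment 2 at each pair of positions, but no pair with leaf 7 in experiment 1. With the replicate block, leaf 7 minus 3 was called at 981 and the midpoint at 3. Over 90 named genes, 2668 of 2920 values stayed on their side of the threshold with no change of a called direction, 212 no longer passed, 38 newly passed and 2 called values changed direction, both in experiment 1 alone: TRY at -1.17 and PYK10 at 0.104. The sign also changed in 10 of the 2668 values, all of genes called neither as reported nor in that setting. Of the list members named outside the 36 genes chosen by size, IAA29 and EXGT-A3 missed the threshold in 9 of the 18 fits that left out 1 array, CYP71B22 in 8, WRKY6 and EXPA4 in 7, EXPA9 in 4, SNZ in 2, and GIS and EXLB1 in 1. Of those 36, 14 passed in every setting, and none changed sign in 1165 values. Their choice by size and by an equal sign in both experiments favours an unchanged sign, so this is a description.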

Other observations

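Among probe sets without a gene name here, chosen after their values were seen, 254915_s_at and 259329_at had the largest rises, from means of 4.86 to 7.61 and of 4.22 to 6.86 between leaf 3 and leaf 7. The probe sets 267168_at and 247954_at had the largest falls, from 6.27 to 3.26 and from 8.51 to 6.06. AT2G15020, also chosen after its values were seen, fell by 1.45 in experiment 1 and rose by 2.74 in experiment 2. GRX480, a glutaredoxin induced by salicylate, was above 0 in both experiments, at +1.82 and +0.81, without passing the test of the mean.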
